A study of Mus musculus with 12 samples.

Results

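The genes described are 9 that end the photoresponse or rebuild cyclic GMP after it, chosen by name among the 56748 genes of the deposited table. Each name stood on 1 identifier, and all 9 passed the filter on low counts that 18334 genes passed. Light adaptation and the return of a photoreceptor to its dark state depend on a small set of proteins that shut off the visual cascade and rebuild cyclic GMP. Light lowers cyclic GMP and, with it, the calcium inside the outer segment. The calcium sensors GCAP1 (Guca1a) and GCAP2 (Guca1b) then switch on the membrane guanylate cyclases (Gucy2e and Gucy2f), rhodopsin kinase (Grk1) marks active opsin for arrestin, and the Rgs9-Gnb5 complex speeds the shut-off of transducin. Recoverin (Rcvrn) holds rhodopsin kinase back while calcium is high, and the exchanger encoded by Slc24a1 carries calcium out of rods.

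The samples were whole retinas. JR5558 is a mouse strain in which new vessels grow under the retina without intervention, and its known mutations are rd8 in Crb1 and a variant of Jak3. Wild-type C57BL/6J mice of the same ages were the controls. There were 4 groups of 3 libraries: JR5558 at 8 weeks, C57BL/6J at 8 weeks, JR5558 at 4 weeks and C57BL/6J at 4 weeks, each library from 1 retina of a separate mouse. The labels name no treatment, and strain was compared at each age and age within each strain.

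Library totals ran from 18029611 to 23739886 counts, and the 9 genes together took 0.660% to 0.854% of a library. CPM below are counts per 1000000 after TMM scaling. Libraries of a group correlated at 0.970 to 0.990 in log2 CPM, and those of different groups at 0.954 to 0.986. C57BL/6J 4-week replicate 3 stood apart in its group. The chi-square of its counts per gene was 23.3 against replicate 1 and 23.1 against replicate 2. Replicates 1 and 2 of that group gave 7.46, and pairs in the other groups gave 3.48 to 13.7. The groups also differed in sex-linked and pigment epithelium transcripts. The 3 JR5558 libraries of 4 weeks held 0 to 5 Xist counts and 1323 to 1846 counts of the Y-linked Ddx3y, and the other 9 held 7772 to 22988 Xist counts and 0 of Ddx3y. In every strain comparison at 4 weeks, strain and sex therefore cannot be told apart. Of 10 pigment epithelium markers, none at 0 in any library, 9 rose in JR5558 at 4 weeks and 1 at 8 weeks by edgeR, with 9 at an unadjusted p under 0.05 at both ages and 4 and 2 called by DESeq2. Their median log2 fold change was 1.37 at 4 weeks and 1.03 at 8 weeks. Their summed CPM was 305 to 505 in JR5558 and 75.1 to 239.8 in C57BL/6J at 4 weeks, and 375 to 560 in JR5558 and 157 to 273 in C57BL/6J at 8 weeks. The 9 rod markers summed to 54763 to 60451 CPM in JR5558 and 55615 to 58785 CPM in C57BL/6J at 4 weeks. At 8 weeks the same sum was lower in every JR5558 library (56206 to 57517 CPM) than in every C57BL/6J library (62440 to 64413 CPM). Of 5 Müller glia markers, 4 rose at 4 weeks and 1 at 8 weeks by edgeR, with 4 at an unadjusted p under 0.05 at both ages and 4 and 2 called by DESeq2. Of 5 microglia markers, 0 rose at 4 weeks and 1 at 8 weeks by edgeR, with 1 and 4 at an unadjusted p under 0.05 and 0 and 2 called by DESeq2. The microglia sum was 29.1 to 35.3 CPM in JR5558 and 24.8 to 27.9 CPM in C57BL/6J at 4 weeks, and 30.4 to 37.8 CPM in JR5558 and 19.2 to 24.2 CPM in C57BL/6J at 8 weeks. At 4 weeks the bipolar marker sum was also apart (1259 to 1361 CPM in JR5558, against 1093 to 1150 CPM in C57BL/6J). So was the cone marker sum (1364 to 1486 CPM in JR5558, against 1327 to 1352 CPM in C57BL/6J). Yet of 6 cone markers 1 rose by edgeR (Opn1sw, log2 fold change 0.36) and 2 fell (Opn1mw, -0.40, and Arr3, -0.45). The mean log2 CPM of the cone markers overlapped, at 7.13 to 7.30 in JR5558 and 7.18 to 7.28 in C57BL/6J. The endothelial sum was apart at 8 weeks, at 34.4 to 40.7 CPM in JR5558, against 42.9 to 53.3 CPM in C57BL/6J. Apart from the fits named below, the part of these differences in the results was not tested. In whole tissue, fewer rods and less RNA per rod cannot be told apart.

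The levels of the 9 genes spanned a wide range when expressed per length, as the authors' FPKM (fragments scaled to gene length and library size). Rcvrn was highest, with a median of 1198 FPKM over the 12 libraries (1085 to 1307 FPKM). Guca1b followed at 516 FPKM (265 to 769), then Slc24a1 at 285 FPKM (264 to 323), Gnb5 at 214 FPKM (178 to 241) and Grk1 at 192 FPKM (160 to 225). The ranges of Guca1b and Slc24a1 overlapped, as did those of Gnb5 and Grk1, so the order within each of these pairs is not fixed. The cyclase Gucy2e stood at 73.6 FPKM (65.6 to 80.9) and its paralogue Gucy2f at 19.5 FPKM (15.2 to 26.4), with Rgs9 between them at 51.8 FPKM (37.4 to 63.3). These 3 ranges did not overlap. Guca1a was last at 3.62 FPKM (1.40 to 7.49), or 26 to 138 counts per library. In the deposited positions, whose build is unknown, Rcvrn (ENSMUSG00000020907) lies on chromosome 11 at 67586152 to 67594159, Gucy2e (ENSMUSG00000020890) at 69108943 to 69127862 and Rgs9 (ENSMUSG00000020599) at 109116181 to 109188955 of the same chromosome. Slc24a1 (ENSMUSG00000034452) lies on chromosome 9 at 64830143 to 64858889 and Gnb5 (ENSMUSG00000032192) on the same chromosome at 75213570 to 75253158.

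The low Guca1a level is uncertain. In the deposited positions Guca1a (ENSMUSG00000023982, chromosome 17, 47705483 to 47711509, minus strand) lies almost wholly inside Gm50461, a predicted protein-coding gene model on the same strand that covers 6023 of its 6027 bases. Gm50461 had 0 counts in all 12 libraries. How reads that fall in both gene models were counted is not given in the sources used here, so the Guca1a values describe only the reads assigned to it. Rcvrn and Gnb5 overlap genes on the other strand. Rcvrn lies within Glp2r (2394 to 5067 counts per library), and Gnb5 overlaps Gm48677 (84 to 197 counts) and Gm19531 (29 to 84 counts). The labels leave the strand setting of the libraries open, and none of these 3 overlapping genes passed the threshold in a strain comparison (edgeR adjusted p 0.376 to 0.708). Glp2r fell with age in JR5558 (-0.77 ± 0.13, edgeR adjusted p = 0.00400), a comparison in which Rcvrn stood at -0.11 ± 0.06 (adjusted p = 0.430).

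**Figure D1:**
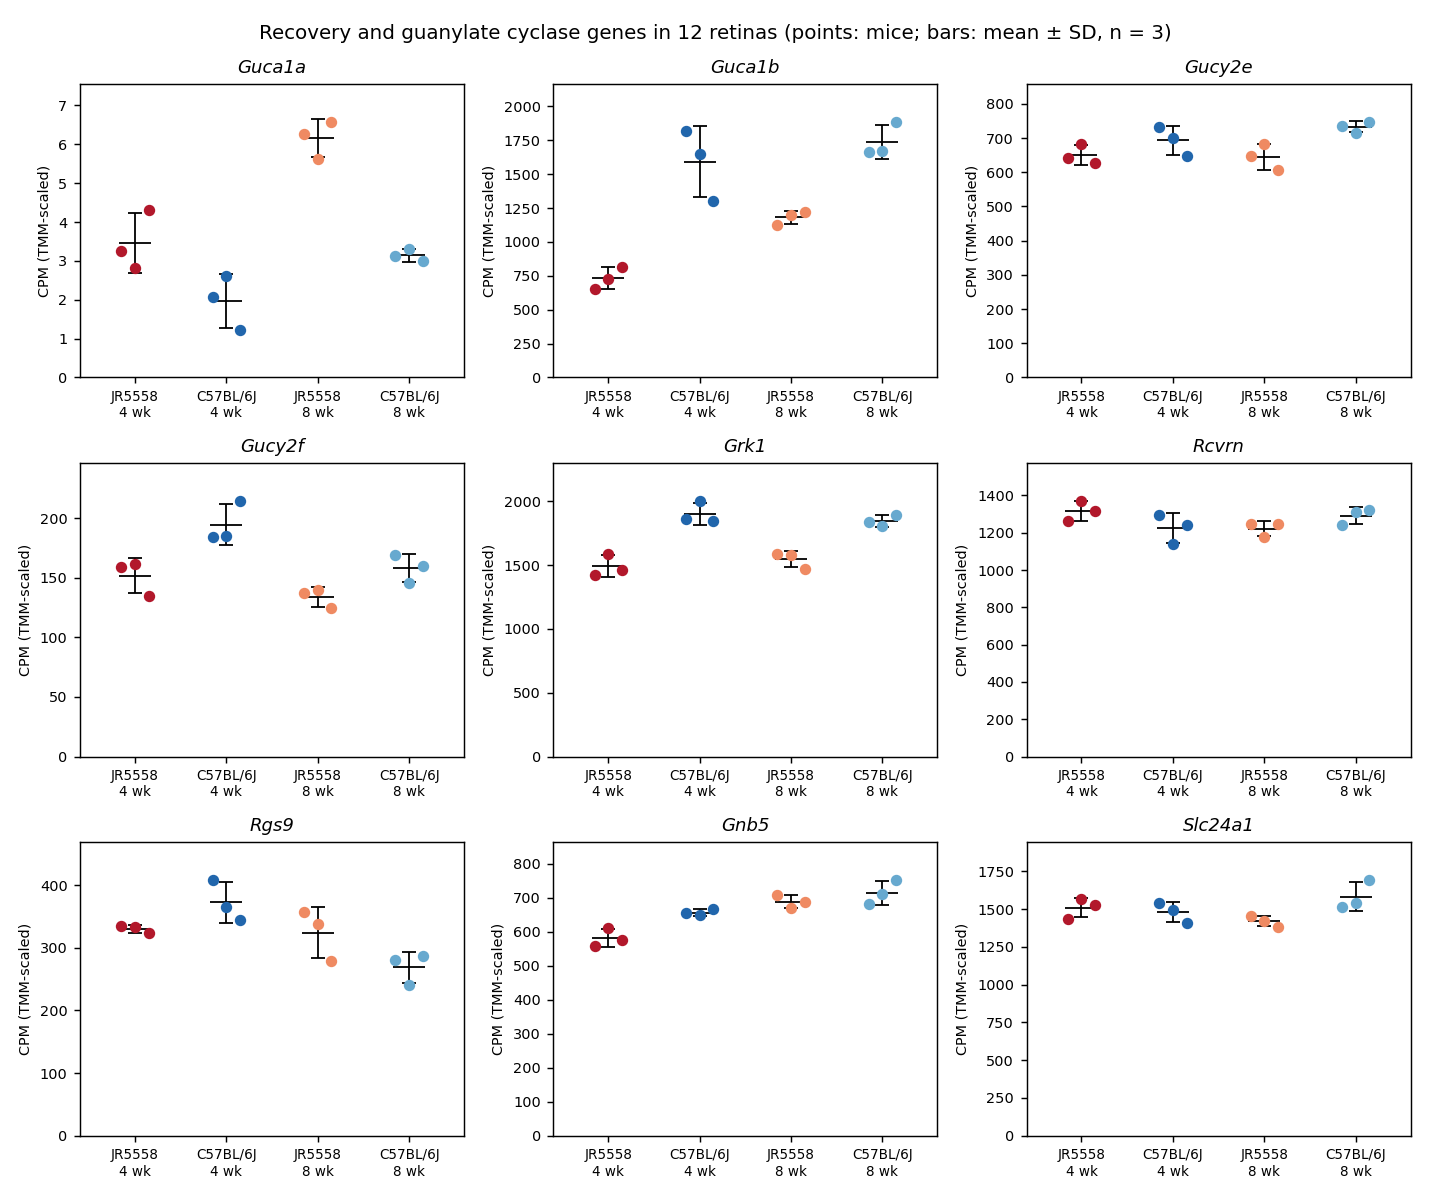
CPM after TMM scaling (y axis, from 0) of each of the 9 genes in every library, with JR5558 left of C57BL/6J at 4 and at 8 weeks; points are mice and bars the mean and SD of 3. Guca1b of JR5558 lies under Guca1b of C57BL/6J at both ages, and Grk1 does the same with a smaller gap.

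At 4 weeks the clearest difference was in the cyclase activator Guca1b (ENSMUSG00000023979, chromosome 17, 47696318 to 47703892, plus strand). It measured 654, 728 and 813 CPM in JR5558 retinas, against 1819, 1651 and 1303 CPM in C57BL/6J retinas. The lowest C57BL/6J library stood well above the highest JR5558 library. Guca1b fell to 46.0% of the C57BL/6J level, a log2 fold change of -1.12 ± 0.10 (standard error, here and below for fold changes; n = 3 mice per group throughout; edgeR quasi-likelihood test with Benjamini-Hochberg adjustment over 18334 genes, adjusted p = 4.99e-07). Its p-value ranked 69 among all tested genes. The call held in all 14 alternatives run for it, with log2 fold changes from -1.25 to -0.92.

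The opsin kinase Grk1 (ENSMUSG00000031450, chromosome 8, 13455081 to 13471951) was also lower at 4 weeks. It measured 1420, 1589 and 1464 CPM in JR5558, against 1863, 2001 and 1843 CPM in C57BL/6J, and the groups did not overlap. The log2 fold change was -0.35 ± 0.06 (edgeR adjusted p = 0.00154). With the pigment epithelium score, the mean log2 CPM of its 10 markers, as a covariate, the value was -0.19 and the call ended (adjusted p = 0.354). That score was higher in every JR5558 library than in every C57BL/6J library of its age, so in this fit score and strain move together.

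The X-linked cyclase Gucy2f (ENSMUSG00000042282, chromosome X, 140864156 to 140979927) measured 159, 161 and 135 CPM in JR5558, against 184, 185 and 214 CPM in C57BL/6J at 4 weeks. The groups did not overlap, the lowest library was JR5558 replicate 3 and the highest C57BL/6J replicate 3. Gucy2f fell by 0.36 ± 0.09 on the log2 scale (edgeR adjusted p = 0.0191). Without the first the log2 fold change was -0.28 (adjusted p = 0.0978), without the second -0.28 (adjusted p = 0.0557), and in a fit of the 4-week libraries alone -0.36 (adjusted p = 0.0952). The call also ended with the pigment epithelium covariate (-0.42, adjusted p = 0.183). Over 592 tested X-linked genes the median log2 fold change was -0.01, and 5.41% passed, against 6.16% of all tested genes.

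The other 6 genes did not pass at 4 weeks. Guca1a measured 3.26, 2.82 and 4.32 CPM in JR5558, against 2.06, 2.60 and 1.22 CPM in C57BL/6J, with a log2 fold change of 0.83 ± 0.26 (edgeR adjusted p = 0.0742). Gucy2e had a log2 fold change of -0.09 ± 0.07 (95% interval -0.24 to 0.05), Rcvrn 0.10 ± 0.06 (-0.03 to 0.24) and Slc24a1 0.03 ± 0.06 (-0.11 to 0.16). For the transducin shut-off complex the values were -0.17 ± 0.09 for Rgs9 (-0.36 to 0.02) and -0.17 ± 0.06 for Gnb5 (-0.31 to -0.04). In these 5 genes the intervals leave no room for a change as large as that of Guca1b, but a small one is not excluded by a missed threshold. In all, 0 genes rose and 3 of 9 fell, where 6.16% of the tested genes were called, 3.27% higher and 2.9% lower. At an unadjusted p under 0.05 there were 5, DESeq2 called 4, and with the pigment epithelium covariate 1 was called. Over all genes, 1130 were called in the main fit, 1410 by DESeq2 and 288 with the covariate. The JR5558 and C57BL/6J libraries did not overlap in 5 genes that were lower and in Guca1a, which was higher, as they did in 19.6% of the tested genes (10.1% higher and 9.55% lower). The median over the 9 genes was -0.17, beside -0.00 over all tested genes.

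At 8 weeks Guca1b and Grk1 were again lower in JR5558, and Guca1a was higher. Guca1b measured 1128, 1195 and 1222 CPM in JR5558, against 1660, 1667 and 1885 CPM in C57BL/6J. It fell to 68.0% of the C57BL/6J level, with a log2 fold change of -0.56 ± 0.10 (edgeR adjusted p = 0.00184). The groups were apart, though the gap was smaller than at 4 weeks. The call held in 13 of 14 alternatives and ended with the pigment epithelium covariate (-0.42, adjusted p = 0.123).

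Grk1 measured 1586, 1581 and 1472 CPM in JR5558, against 1837, 1802 and 1896 CPM in C57BL/6J at 8 weeks. The log2 fold change was -0.25 ± 0.06 (edgeR adjusted p = 0.0214), with no overlap between the groups. This call was near the threshold: it ended in each of the 6 fits that left out 1 library (adjusted p 0.0585 to 0.136) and with the pigment epithelium covariate (-0.15, adjusted p = 0.382).

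Guca1a measured 6.27, 5.63 and 6.58 CPM in JR5558, against 3.13, 3.32 and 2.99 CPM in C57BL/6J at 8 weeks. The groups were again apart, and the gene rose by a log2 fold change of 0.97 ± 0.25 (edgeR adjusted p = 0.0254). The call ended in each of the 6 fits without 1 library (adjusted p 0.0529 to 0.116) and with the pigment epithelium covariate (1.23, adjusted p = 0.0725). It rests on few counts of a gene whose reads may be shared with another model, as described above.

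The remaining 6 genes did not pass at 8 weeks. Gucy2f measured 137, 140 and 124 CPM in JR5558, against 169, 146 and 160 CPM in C57BL/6J (-0.24 ± 0.09, edgeR adjusted p = 0.146), in groups that all held Xist. Gucy2e had a log2 fold change of -0.18 ± 0.07 (adjusted p = 0.143) and Slc24a1 -0.16 ± 0.06 (adjusted p = 0.201). Rgs9 measured 356, 337 and 279 CPM in JR5558, against 281, 241 and 286 CPM in C57BL/6J, overlapping groups with a log2 fold change of 0.27 ± 0.09 (adjusted p = 0.112). The 95% intervals of Gucy2f (-0.43 to -0.05), Gucy2e (-0.33 to -0.04), Slc24a1 (-0.29 to -0.02) and Rgs9 (0.08 to 0.46) excluded 0. Gnb5 stood at -0.05 ± 0.06 (95% interval -0.19 to 0.08) and Rcvrn at -0.08 ± 0.06 (-0.21 to 0.06). In all, 1 of 9 genes rose and 2 fell, where 5.18% of the tested genes were called, 2.54% higher and 2.63% lower. At an unadjusted p under 0.05 there were 7, and DESeq2 called 3. The count by edgeR was 6 with only the 8-week libraries in the fit and 0 with the pigment epithelium covariate. Over all genes, 949 were called in the main fit and 1233 by DESeq2. The count over all genes was 2183 with only the 8-week libraries and 432 with the covariate. Groups did not overlap in 1 gene that was higher and 5 that were lower, as in 30.2% of the tested genes (14.9% higher and 15.3% lower). The median over the 9 genes was -0.16, beside -0.00 over all tested genes.

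**Figure D2:**
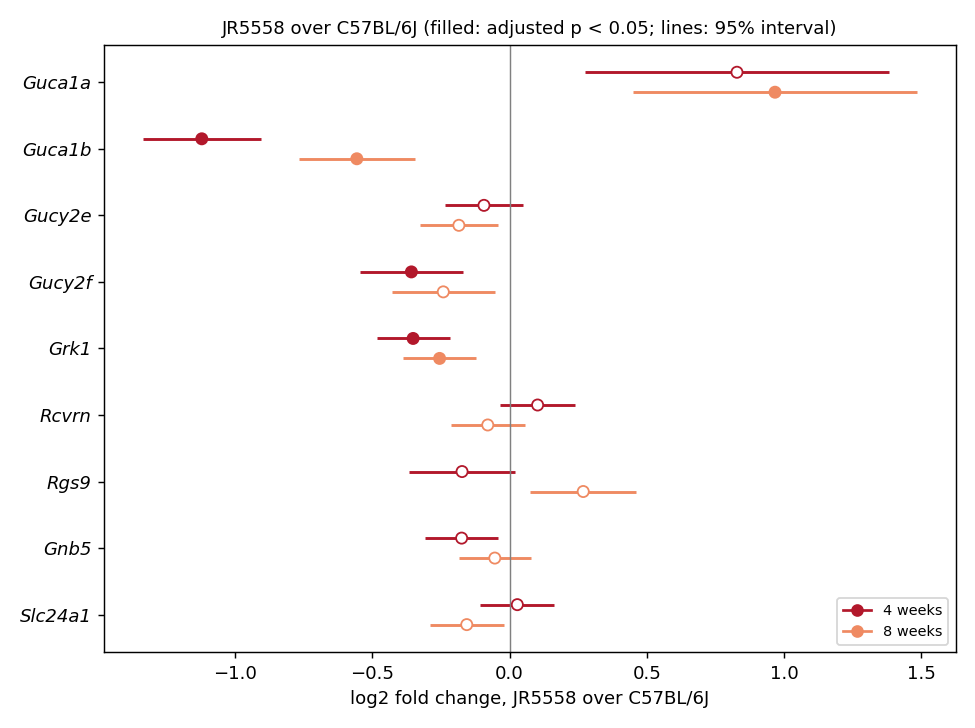
Log2 fold change of JR5558 over C57BL/6J (x axis) for each gene at 4 and 8 weeks, with 95% intervals; filled points have an adjusted p under 0.05. Guca1b lies at -1.12 and -0.56 and Guca1a on the other side of 0 at 0.83 and 0.97.

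The members were next set against the rods' own transcripts. Scaled on 9 rod cascade genes in place of all genes, the median of all tested genes shifted to 0.18 at 8 weeks and 0.03 at 4 weeks. With library-wide scaling, 3 of those 9 genes were themselves called lower at 8 weeks (median -0.18). Rod cascade scaling called 2642 genes at 8 weeks and 1016 at 4 weeks, against 949 and 1130 with library-wide scaling. On that scale Guca1b was still lower in JR5558 at 4 weeks (-1.09 ± 0.09, edgeR adjusted p = 6.46e-08) and at 8 weeks (-0.37 ± 0.09, adjusted p = 0.00951). Grk1 was still lower at 4 weeks (-0.33 ± 0.07, adjusted p = 0.00472) but stood at -0.07 ± 0.07 at 8 weeks (adjusted p = 0.526). Rgs9, not past the threshold with library-wide scaling, passed at 8 weeks on that scale (0.46 ± 0.10, adjusted p = 0.00530), and Gucy2f no longer passed at 4 weeks (-0.33 ± 0.10, adjusted p = 0.0785). Gucy2e, Rcvrn, Gnb5 and Slc24a1 changed sign at 8 weeks, to 0.0028, 0.11, 0.13 and 0.03, and passed on neither scale.

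The paralogous pairs were also compared within each library, where no scaling enters. The ratio of Guca1b to Guca1a FPKM was 71.7, 92.3 and 67.3 in JR5558, against 316, 227 and 381 in C57BL/6J at 4 weeks. At 8 weeks it was 64.4, 75.9 and 66.4 in JR5558, against 190, 180 and 225 in C57BL/6J. The ratio was lower in JR5558 in every library at both ages, by -1.75 on the log2 scale over both ages (exact permutation test of strain within age, 2-sided, p = 0.005, the smallest that 400 permutations can give). Within 1 age the smallest possible p was 0.1, which both ages gave. Guca1b and Guca1a were each apart in opposite directions at both ages, so the ratio had to separate and p had to be the smallest possible. The test therefore adds no support beyond the values of each gene. The level of this ratio and its strain difference share the uncertainty of the Guca1a counts.

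The ratio of Gucy2f to Gucy2e FPKM was 0.281, 0.267 and 0.244 in JR5558, against 0.285, 0.299 and 0.374 in C57BL/6J at 4 weeks. At 8 weeks it was 0.240, 0.232 and 0.232 in JR5558, against 0.260, 0.231 and 0.243 in C57BL/6J, and those groups overlapped. The difference over both ages was -0.16 on the log2 scale (exact permutation test, 2-sided, p = 0.025). Within ages it was -0.27 (exact p = 0.1) at 4 weeks and -0.05 (exact p = 0.4) at 8 weeks. Leaving out C57BL/6J 4-week replicate 3 reduced the difference to -0.10 (exact permutation p = 0.065), and leaving out JR5558 4-week replicate 1, 2 or 3 or C57BL/6J 8-week replicate 1 or 3 also brought p to 0.05 or more.

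Between 4 and 8 weeks, 1 gene changed in each strain. In JR5558, Guca1b rose to 1182 ± 48.0 CPM at 8 weeks, against 732 ± 79.6 CPM at 4 weeks (SD), with no overlap and a log2 fold change of 0.69 ± 0.10 (edgeR adjusted p = 0.00122). This call held in all 14 alternatives (0.63 to 0.78). In C57BL/6J the same gene measured 1738 ± 128 CPM at 8 weeks and 1591 ± 263 CPM at 4 weeks (0.13 ± 0.10, adjusted p = 0.594). Because the 4-week libraries of JR5558 were the ones with at most 5 Xist counts, age and sex cannot be told apart within that strain.

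Rgs9 was the member that changed with age in C57BL/6J. It measured 281, 241 and 286 CPM at 8 weeks, against 408, 365 and 345 CPM at 4 weeks, and the groups did not overlap. It fell by 0.47 ± 0.09 on the log2 scale (edgeR adjusted p = 0.0265). The call ended without any of C57BL/6J replicates 1 and 2 of 4 weeks and 1, 2 and 3 of 8 weeks (adjusted p 0.0576 to 0.220), with the pigment epithelium covariate (-0.43, adjusted p = 0.0609) and with only the groups compared in the fit (-0.47, adjusted p = 0.0785). In JR5558 Rgs9 measured 324 ± 40.2 CPM at 8 weeks and 330 ± 6.20 CPM at 4 weeks (-0.03 ± 0.09, adjusted p = 0.920).

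The other 8 genes of each age comparison did not pass. Gnb5, the partner of Rgs9, had a log2 fold change of 0.24 ± 0.06 in JR5558 (edgeR adjusted p = 0.0585) and 0.12 ± 0.06 in C57BL/6J (adjusted p = 0.384). Guca1a had 0.83 ± 0.24 in JR5558 (adjusted p = 0.0944) and 0.69 ± 0.27 in C57BL/6J (adjusted p = 0.247). Gucy2f had -0.18 ± 0.09 in JR5558 (adjusted p = 0.315) and -0.30 ± 0.09 in C57BL/6J (adjusted p = 0.141). In JR5558, DESeq2 called Gnb5 (adjusted p = 0.00969) and Guca1a (adjusted p = 0.0338) as well. Scaled on the rod cascade, where the median of all genes shifted to -0.21 in C57BL/6J, 3 members were called lower there: Rgs9 (-0.68), Gucy2f (-0.51) and Grk1 (-0.26). Over all genes, that scaling called 2863 with age in C57BL/6J, against 79 with library-wide scaling. The part of the median shift in these 3 calls was not tested. With library-wide scaling Grk1, Rcvrn, Gucy2e and Slc24a1 lay between -0.11 and 0.09 in both strains. The count of 1 of 9 stood against 1.51% of tested genes called with age in JR5558 (0.676% higher and 0.835% lower) and 0.431% in C57BL/6J (0.202% higher and 0.229% lower). In JR5558, 3 genes were higher at 8 weeks without overlap (Guca1a, Guca1b and Gnb5) and 1 lower (Rcvrn), as 24.3% of tested genes were (12% higher and 12.2% lower). In C57BL/6J, 2 were higher (Guca1a and Gnb5) and 2 lower (Gucy2f and Rgs9), as 19% of tested genes were (8.98% higher and 10% lower).

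**Figure D3:**
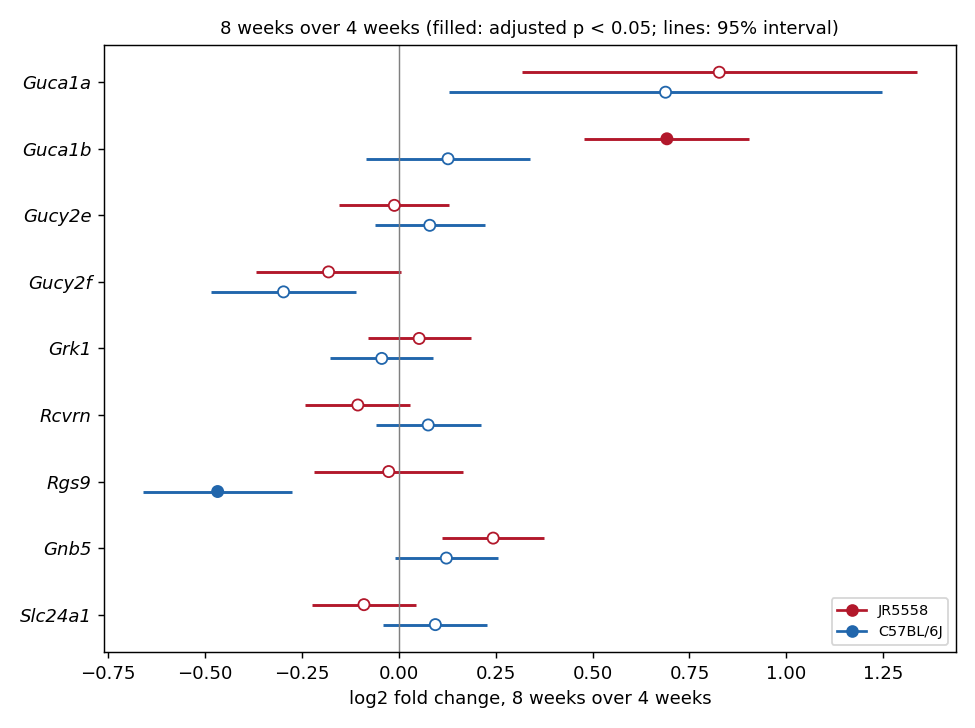
Log2 fold change of 8 over 4 weeks (x axis) for each gene in JR5558 and in C57BL/6J, with 95% intervals; filled points have an adjusted p under 0.05. Guca1b of JR5558 at 0.69 and Rgs9 of C57BL/6J at -0.47 are the filled points.

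By edgeR, 0 of 9 genes passed the test of whether the strain difference itself changed with age, 2 had an unadjusted p under 0.05, and DESeq2 called 1. The difference of log2 fold changes, 8 weeks minus 4 weeks, was 0.56 ± 0.14 for Guca1b (edgeR adjusted p = 0.276) and 0.44 ± 0.13 for Rgs9 (adjusted p = 0.385). Their p-values ranked 60 and 146 of 18334, and 17 genes, or 0.0927%, passed. Guca1b passed in 4 of 19 alternatives: DESeq2 (0.57, adjusted p = 0.0486), no filter on low counts (0.59, adjusted p = 7.09e-05), scaling on the rod cascade (0.73, adjusted p = 0.0212), and without C57BL/6J 4-week replicate 3 (0.69, adjusted p = 0.00849). Rgs9 passed with no filter (0.46, adjusted p = 0.0315). The smaller Guca1b gap at 8 weeks is therefore a difference between values, not one that passed the test across all genes. Because only the JR5558 libraries of 4 weeks held Ddx3y counts, a change of the strain difference with age and sex cannot be told apart.

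The proteins that work with these 9 genes were described from gene lists. Over all tested genes, 3.27% rose and 2.9% fell at 4 weeks, and 2.54% rose and 2.63% fell at 8 weeks. These shares are the background for every list. The lists also share genes, so their counts are not separate: Arr3 is also in the cone cascade, Cngb1 in the rod cascade and Rgs9bp in the R7 RGS list. Of 12 recovery partners, 0 rose and 2 fell at 4 weeks, and 0 rose and 3 fell at 8 weeks. Rgs9bp, which anchors the Rgs9-Gnb5 complex to the disc membrane, fell by 0.29 ± 0.06 at 4 weeks (edgeR adjusted p = 0.00528) and by 0.24 ± 0.06 at 8 weeks (adjusted p = 0.0255). Cone arrestin Arr3 fell by 0.45 ± 0.12 at 4 weeks (adjusted p = 0.0255) and by 0.46 ± 0.12 at 8 weeks (adjusted p = 0.0255). Cngb1, a subunit of the rod cyclic GMP-gated channel, fell by 0.41 ± 0.08 at 8 weeks (adjusted p = 0.00454) and stood at -0.20 ± 0.08 at 4 weeks (adjusted p = 0.194). The list's median was -0.04 at 4 weeks and -0.13 at 8 weeks.

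Of 10 rod cascade genes, 0 passed by edgeR at 4 weeks (median -0.01, with 2 at an unadjusted p under 0.05 and 0 by DESeq2) and 3 fell at 8 weeks (median -0.16). Beside Cngb1, these were rod transducin Gnat1 (-0.34 ± 0.06, edgeR adjusted p = 0.00216) and the phosphodiesterase subunit Pde6b (-0.28 ± 0.07, adjusted p = 0.0141). Guca1b, Grk1 and Gucy2f were called at 4 weeks beside 0 of 10 rod cascade genes, where 6.16% of all tested genes were called. With 10 genes, 0 called is not set apart from that share. The Gucy2f call ended in several alternatives, as given above. Of 10 cone cascade genes, 2 rose and 3 fell at 4 weeks, and 2 rose and 2 fell at 8 weeks. Gnb3 rose by 0.70 ± 0.09 at 4 weeks and by 0.58 ± 0.09 at 8 weeks. The other gene that rose was Opn1sw, by 0.36 ± 0.07 at 4 weeks and 0.30 ± 0.07 at 8 weeks. The cone phosphodiesterase Pde6c fell by 2.08 ± 0.09 at 4 weeks and by 1.98 ± 0.09 at 8 weeks, more than any of the 9 members. In C57BL/6J, rod arrestin Sag rose with age (0.41 ± 0.06, adjusted p = 0.00370), as did Gnat1 (0.34 ± 0.06, adjusted p = 0.0188).

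Of 14 neuronal calcium sensors, the gene family of Rcvrn and the 2 GCAPs, the potassium channel-interacting proteins Kcnip3 and Kcnip2 rose at 4 weeks (0.52 ± 0.10 and 0.58 ± 0.13) and at 8 weeks (0.44 ± 0.10 and 0.46 ± 0.13, edgeR adjusted p 0.00317 to 0.0487), and 12 did not pass by edgeR at either age. In that family 4 genes at 4 weeks and 6 at 8 weeks had an unadjusted p under 0.05, and DESeq2 called 2 and, with Hpcal1, 3. Of 6 other guanylate cyclases tested out of 9 listed, 5 other receptor kinases and 11 other calcium exchangers and pumps, 0 passed by edgeR at either age. At an unadjusted p under 0.05 the cyclases had 0 at both ages, the kinases 1 at 4 weeks and 2 at 8 weeks, and the exchangers 0 at 4 weeks and 1 at 8 weeks, and DESeq2 called 1 kinase, Grk5, at 4 weeks. Of 7 genes of R7 RGS complexes, which pair with Gnb5, Rgs9bp was the one that passed. Of 12 photoreceptor transcription factors, Samd7 rose at 4 weeks (0.43 ± 0.07, edgeR adjusted p = 0.000624). Crx (-0.28 ± 0.07, adjusted p = 0.0154) and Rorb (-0.32 ± 0.09, adjusted p = 0.0343) fell at 8 weeks. Rorb also fell with age in JR5558 (-0.43 ± 0.09, adjusted p = 0.0135).

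**Figure D4:**
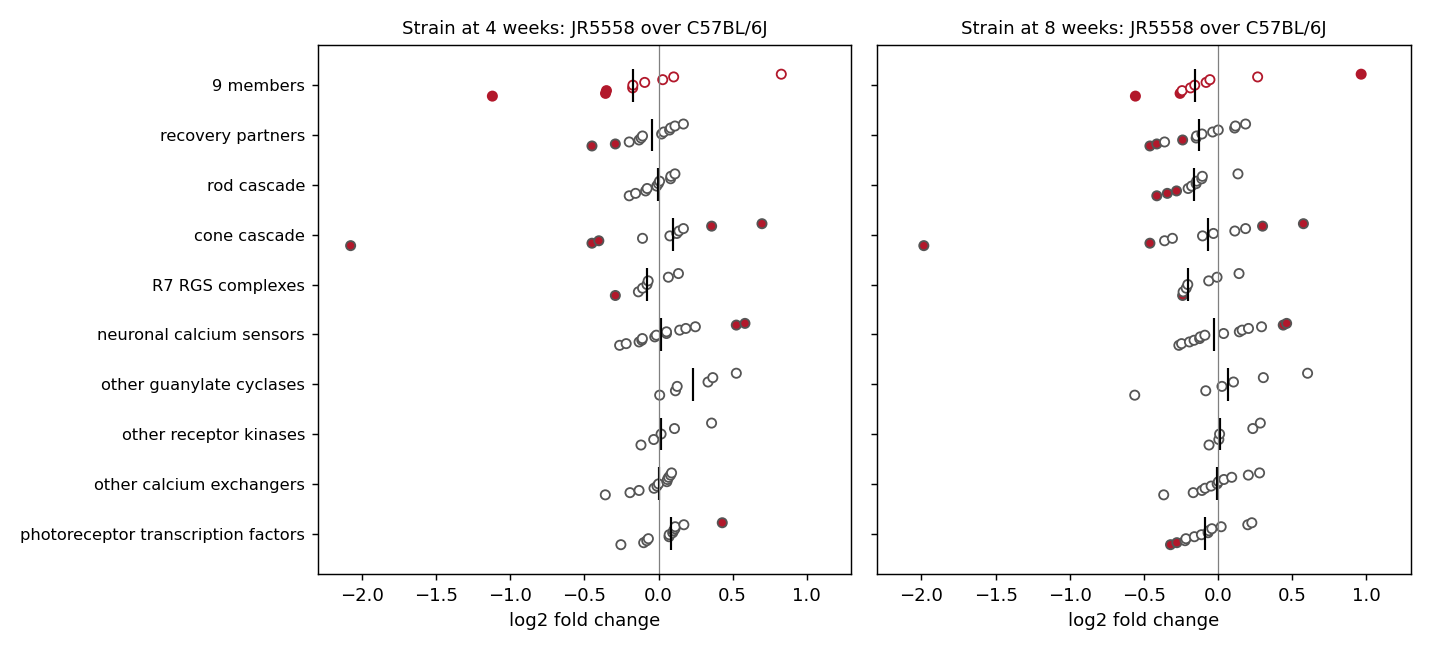
Log2 fold changes of JR5558 over C57BL/6J (x axis) at 4 weeks (left) and 8 weeks (right) for the 9 genes and each gene list (rows); points are genes, filled where the adjusted p is under 0.05, and the upright bar is the median. The rod cascade median is -0.01 at 4 weeks and -0.16 at 8 weeks, beside -0.17 and -0.16 for the 9 genes.

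Guca1b and Guca1a are neighbours on chromosome 17, transcribed towards each other, and their strain differences ran in opposite directions. The Guca1a difference did not pass at 4 weeks, and at 8 weeks its call ended in each fit without 1 library. Its counts are few and uncertain, as described above. Over all tested genes, 6.16% passed at 4 weeks and 5.18% at 8 weeks. Of 34 tested genes that lie within 100000 bases of a member and are not members, 1 passed at 4 weeks and 1 at 8 weeks. The first was Mrps10, a mitochondrial ribosomal protein gene beside Guca1b, which rose at 4 weeks (0.47 ± 0.10, edgeR adjusted p = 0.00565) and stood at 0.19 ± 0.10 at 8 weeks (adjusted p = 0.331). The second was Tfdp1, a partner of E2F factors near Grk1, which fell at 8 weeks (-0.46 ± 0.08, adjusted p = 0.00118) and stood at -0.23 ± 0.08 at 4 weeks (adjusted p = 0.0978).

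Of 14668 protein-coding genes outside the 9, those with the profile most like Guca1b over the 12 libraries were Haus8, an augmin subunit, Psmb5, a proteasome subunit, and Pdyn, which encodes prodynorphin. Their root mean squared difference from the centred Guca1b profile was 0.13, 0.14 and 0.20 on the log2 CPM scale, where a gene with the same level in all libraries would stand at 0.50. For Guca1a they were C1qa, a complement gene of microglia, Lfng, a Notch glycosyltransferase, and Plvap, a gene of fenestrated endothelium, with 0.25, 0.29 and 0.29, where a flat gene would stand at 0.64. The median difference over the 14668 genes was 0.54 for Guca1b and 0.67 for Guca1a. The named genes were picked as the closest in the same 12 libraries, and the cause of the likeness was not tested. The Guca1a profile rests on few counts.

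RefSeq (GRCm38.p6) promoter entries were found for 7 of the 9 genes; Guca1b and Rcvrn had none. The 250 bases before the start were searched on both strands for TAATCC, the core bound by the photoreceptor factors Crx and Otx2, and for TGCTGA, a core of Nrl sites. TAATCC was in 4 of the 7 (Guca1a, Gucy2e, Gucy2f and Gnb5) and in 6.25% of 32851 promoter windows of the same length. TGCTGA was in 1 of the 7 (Rgs9) and in 16.1% of the windows. A match is a description of the letters and not a bound site. The windows of the 3 genes with an entry that passed in a strain comparison are shown with that of Gucy2e, the paralogue of Gucy2f, on the strand of the gene, with TAATCC or its reverse complement in capitals:
Grk1, chr8:13404831-13405080, plus strand: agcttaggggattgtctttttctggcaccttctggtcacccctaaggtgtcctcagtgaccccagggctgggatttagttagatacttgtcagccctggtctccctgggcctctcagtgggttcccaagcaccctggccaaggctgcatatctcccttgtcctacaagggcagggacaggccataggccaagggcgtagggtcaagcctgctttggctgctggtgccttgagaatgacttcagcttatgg
Gucy2f, chrX:142196937-142197186, minus strand: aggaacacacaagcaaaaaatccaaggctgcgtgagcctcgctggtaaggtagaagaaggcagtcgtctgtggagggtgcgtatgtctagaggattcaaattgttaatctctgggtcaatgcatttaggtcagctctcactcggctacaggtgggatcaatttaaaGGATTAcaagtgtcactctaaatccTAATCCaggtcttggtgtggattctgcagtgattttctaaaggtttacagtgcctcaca
Gucy2e, chr11:69237023-69237272, minus strand: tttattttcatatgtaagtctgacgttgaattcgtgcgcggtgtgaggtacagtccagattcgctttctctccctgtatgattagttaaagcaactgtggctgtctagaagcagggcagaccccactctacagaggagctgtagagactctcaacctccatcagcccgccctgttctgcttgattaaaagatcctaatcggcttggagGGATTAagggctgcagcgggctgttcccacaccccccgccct
Guca1a, chr17:47400607-47400856, minus strand: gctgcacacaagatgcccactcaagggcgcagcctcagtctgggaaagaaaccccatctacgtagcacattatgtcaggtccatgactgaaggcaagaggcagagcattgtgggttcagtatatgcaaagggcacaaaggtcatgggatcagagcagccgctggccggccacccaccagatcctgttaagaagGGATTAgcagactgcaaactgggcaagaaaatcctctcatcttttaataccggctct
The Grk1 window holds 0 matches, Gucy2f 2, and Gucy2e and Guca1a 1 each.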

How the data were processed

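Poly-A RNA from whole retinas of 12 mice was read by paired-end sequencing. The submitters' processing notes name featureCounts 1.5.0-p3, HISAT2 2.0.5, fastp and the build mm10. Per the file headers, the deposited table holds raw counts per gene and library, FPKM, and for each comparison of the authors log2 fold changes and p-values, whose test is not stated. The authors' group means were not used. Positions are as deposited: 0 of the 9 genes had the start and end of GENCODE M21 (mm10), and all 9 were shifted equally at both ends, so their build remains unknown.

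The main tests used edgeR 4.0.16 under R 4.3.3, with DESeq2 1.42.0 as an alternative. Genes passing filterByExpr (minimum count 10, minimum total 15) were scaled by TMM and fitted in 1 quasi-likelihood model with a mean per group. Contrasts were 2-sided, with Benjamini-Hochberg adjustment over 18334 genes and a threshold of 0.05. log2 CPM used a prior count of 2. Replicates are separate mice, and no pair of replicates differed by sampling noise alone. Ratios were tested by exact permutation of samples.

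The members, lists, named-gene rule and alternatives were chosen with earlier results of these data known. The rule names all members, up to 3 called genes per list and strain comparison (2 per age comparison), called or overlapping neighbours within 100000 bases, and the 3 nearest profiles of members called by a log2 fold change of 0.5 or more in size; some genes it selects from the marker lists are left out here.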

Additional observations from a re-analysis of the deposited data

How the results depend on the processing

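Of 675 refits of a member in a comparison, 605 kept direction and side of the threshold, 29 lost and 22 gained a call, and 19 changed sign, all 19 for genes not called. RLE size factors and a filter of 1 CPM in 3 libraries changed no member's call. The replicate numbers do not pair the mice (correlations of deviations -0.09 to 0.09), and with the replicate block the counts of members called stayed at 3, 3, 1, 1 and 0. The causes of the changes below were not tested.

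Members called were 3 at 4 weeks, 3 at 8 weeks, 1 with age in JR5558, 1 with age in C57BL/6J and 0 in strain by age. In the same order they were 1, 0, 1, 0 and 0 with the pigment epithelium covariate, 2, 3, 1, 3 and 1 with rod cascade scaling, 3, 4, 3, 2 and 2 with no filter, and 4, 3, 3, 1 and 1 with DESeq2. With only the groups compared the first 4 were 2, 6, 2 and 0. Leaving out 1 library gave 2 to 4, 1 to 2, 1 to 2, 0 to 1 and 0 to 1.

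All genes called were 1130, 949, 277, 79 and 17 in that order. Counts that moved by more than 1.5 times were 2642 at 8 weeks and 2863 with age in C57BL/6J with rod cascade scaling. They were 854, 445 and 96 (age in JR5558, age in C57BL/6J and strain by age) with no filter and 713, 401 and 61 with DESeq2. They were 558, 2183, 544 and 22 with only the groups compared, and 288 and 432 (strain) with the covariate. Leaving out 1 library gave 814 to 1162, 538 to 649, 63 to 689, 16 to 125 and 6 to 38. The log2 GCAP ratio difference ranged from -1.85 to -1.67 and the cyclase ratio from -0.20 to -0.10.

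Sign changes with rod cascade scaling were Gucy2e 0.0028, Rcvrn 0.11, Gnb5 0.13 and Slc24a1 0.032 (8 weeks), Guca1b -0.083, Gucy2e -0.13, Rcvrn -0.14, Gnb5 -0.091 and Slc24a1 -0.12 (age in C57BL/6J), and Gucy2e 0.068 (strain by age). With the covariate they were Gucy2e 0.033 (4 weeks), Grk1 0.012 (age in C57BL/6J) and Guca1a -0.018 (strain by age). With no filter Gucy2e was 0.0062 (age in JR5558). Without 1 library Gucy2e ranged from -0.045 to 0.032 and Rgs9 from -0.092 to 0.072 (age in JR5558), Guca1a from -0.10 to 0.40 (strain by age) and Slc24a1 from -0.0070 to 0.060 (4 weeks).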

Other observations

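The authors' deposited table calls 3 of the 9 genes at 4 weeks, 0 higher and 3 lower in JR5558. At 8 weeks the authors' deposited table calls 7, 2 higher and 5 lower. The genes it adds at 8 weeks are Rgs9 (0.27, adjusted p = 0.00973), Gucy2e (-0.18, adjusted p = 0.00494), Gucy2f (-0.24, adjusted p = 0.00790) and Slc24a1 (-0.15, adjusted p = 0.0260) in the authors' deposited table. With age in JR5558, the authors' deposited table calls 3 higher: Guca1b (0.70), Guca1a (0.83, adjusted p = 0.0266) and Gnb5 (0.25, adjusted p = 0.00202). With age in C57BL/6J, Rgs9 is the 1 gene called in the authors' deposited table (-0.47, adjusted p = 0.000929).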
